A study of Homo sapiens with 12 samples.

Results

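Expression of 6 interferon-inducible antiviral genes was followed in 12Z cells: IFIT1, IFIT2, IFIT3 and IFIT5 of the IFIT family, HERC5 and OASL. These 6 genes were taken by symbol from the 60617 gene rows of the files, and each matched a single Ensembl ID. They had been chosen by their measured counts in all 4 groups of these libraries, as interferon- and IRF3-inducible genes, and which comparison guided the choice is not recorded. All 6 were among the 23041 genes whose mean over the libraries reached 1 count. 12Z is an immortalized human epithelial line derived from endometriosis. The cells carried the pCAG Viperin or the pCAG empty vector plasmid and received 100 nM insulin or its vehicle in serum-free medium, and mRNA-seq was performed 24 h later. The groups were Viperin + Insulin (pCAG Viperin, insulin), Viperin (pCAG Viperin, vehicle), Insulin (pCAG empty vector, insulin) and Control (pCAG empty vector, vehicle), with 3 libraries each. All groups were therefore transfected, serum-starved cells of the same line, and the Viperin plasmid expresses its insert from the CAG promoter whatever the cell's interferon state. The methods give 3 independent experiments per condition, while no label ties a library to a culture.

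IFIT proteins are cytoplasmic RNA-binding proteins built of tetratricopeptide repeats, and they hold back translation of foreign RNA. HERC5 is the main E3 ligase that attaches the ubiquitin-like protein ISG15 to newly made proteins, and OASL is a catalytically inactive relative of the oligoadenylate synthetases that acts on RNA sensing. Interferon induces all 6 genes through the interferon-stimulated response element (ISRE), and activated IRF3 can induce several of them directly, before any interferon is made. RSAD2, which encodes Viperin, belongs to the same antiviral programme.

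In Viperin-transfected cells the transcripts of IFIT2, IFIT3, HERC5 and OASL were lower than in cells with the empty vector over both insulin states, and also under insulin alone. With vehicle alone IFIT2, IFIT3 and OASL were called lower, and of these only the IFIT2 call held with each library left out. IFIT5, in the same gene cluster, showed no such difference, and IFIT1 lay between. OASL had the largest difference and fell by 35.5% over both insulin states, whereas IFIT3 fell by 17.2%. Insulin moved IFIT1 and HERC5 in opposite directions in Viperin cells, and neither response was shown to differ from that in empty-vector cells.

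The libraries held 25979022 to 46889002 assigned read pairs. Between 9.44% and 13.9% of pairs mapped to more than 1 place and were not counted. Control library 1 and Viperin library 3 stood apart with the smallest totals and the highest multimapped shares, so results were also computed without both. RSAD2 ranged over 463 to 609 CPM (counts scaled to TMM-adjusted library size) in Viperin + Insulin and 384 to 665 CPM in Viperin, against 3.01 to 5.19 CPM in Insulin and 2.28 to 3.48 CPM in Control, so the targeted transcript matched every plasmid label. Of the 6 epithelial markers, KRT7, KRT8, KRT18 and KRT19 were abundant, while CDH1 held 24 to 66 and EPCAM 2 to 39 counts per library. The 8 markers listed as stromal were all expressed too.

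The 4 IFIT genes lie in a cluster on the plus strand of chromosome 10 (GRCh38, GENCODE 44 gene models), within 137912 bases. IFIT2 spans chr10:89283694-89309271, IFIT3 chr10:89327307-89377473, IFIT1 chr10:89392546-89406487 and IFIT5 chr10:89414568-89421605. HERC5 lies on the plus strand at chr4:88457119-88506163 and OASL on the minus strand at chr12:121017763-121039246. IFIT2 shares 524 of its 4326 exon bases with a long noncoding RNA on the same strand, which held 27 to 86 counts per library. Since the counts are of reverse-strand pairs, reads of the 6 genes on the other strand stay apart, and they amounted to at most 2.96% (in IFIT5) of the gene's counts. The close relatives IFIT1B and the pseudogene IFIT1P1 held 0 to 5 counts in any library.

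Promoter windows of 300 bases, 250 before and 50 after a transcription start, were available from RefSeq (GRCh38.p14) for IFIT1, IFIT3, IFIT5 and HERC5, with separate upstream and downstream starts for IFIT3. IFIT2 and OASL, both called lower with the Viperin plasmid, had no window and were not searched. The windows are shown because interferon induces these genes through the ISRE, whose part in the differences was not tested. All are on the plus strand, 5′ to 3′: IFIT1 at chr10:89392373-89392672, the IFIT3 upstream start at chr10:89327747-89328046, the IFIT3 downstream start at chr10:89332279-89332578, IFIT5 at chr10:89414318-89414617 and HERC5 at chr4:88456869-88457168. Capitals mark matches to the ISRE core, which is GAAA, any 2 bases and GAAA again, and in these windows all matches read on the opposite strand.
IFIT1: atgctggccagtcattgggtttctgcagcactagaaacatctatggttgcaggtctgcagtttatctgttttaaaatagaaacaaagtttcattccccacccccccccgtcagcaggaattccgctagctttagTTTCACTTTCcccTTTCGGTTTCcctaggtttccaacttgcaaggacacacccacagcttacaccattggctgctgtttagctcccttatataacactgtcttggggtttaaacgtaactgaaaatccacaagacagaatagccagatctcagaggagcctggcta
IFIT3 upstream start: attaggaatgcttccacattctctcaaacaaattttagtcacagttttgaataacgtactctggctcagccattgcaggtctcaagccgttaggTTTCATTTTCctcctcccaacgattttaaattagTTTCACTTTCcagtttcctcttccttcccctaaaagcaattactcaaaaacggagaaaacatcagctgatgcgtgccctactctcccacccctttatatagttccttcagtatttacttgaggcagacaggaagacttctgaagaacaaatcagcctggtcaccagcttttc
IFIT3 downstream start: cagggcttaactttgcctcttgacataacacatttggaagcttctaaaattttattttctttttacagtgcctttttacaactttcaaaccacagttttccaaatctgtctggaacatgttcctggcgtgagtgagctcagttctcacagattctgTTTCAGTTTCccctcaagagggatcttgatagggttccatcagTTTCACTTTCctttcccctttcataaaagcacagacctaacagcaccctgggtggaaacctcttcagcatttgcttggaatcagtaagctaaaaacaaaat
IFIT5: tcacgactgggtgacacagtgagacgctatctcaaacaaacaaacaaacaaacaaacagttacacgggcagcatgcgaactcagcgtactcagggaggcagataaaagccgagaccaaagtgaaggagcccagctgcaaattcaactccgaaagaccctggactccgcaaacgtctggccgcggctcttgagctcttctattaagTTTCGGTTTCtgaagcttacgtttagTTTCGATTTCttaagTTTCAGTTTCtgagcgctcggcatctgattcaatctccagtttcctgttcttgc
HERC5: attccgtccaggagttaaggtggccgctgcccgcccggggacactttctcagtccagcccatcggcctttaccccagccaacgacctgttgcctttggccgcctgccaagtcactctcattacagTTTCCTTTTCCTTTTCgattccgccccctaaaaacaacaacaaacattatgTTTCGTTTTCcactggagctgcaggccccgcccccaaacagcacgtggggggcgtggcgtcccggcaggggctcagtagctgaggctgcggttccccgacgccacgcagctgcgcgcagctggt
The core was searched on both strands. IFIT1 had 2 matches, 116 and 103 bases before its start, and IFIT3 had 2 at the upstream start (156 and 122 bases before it) and 2 at the downstream start (94 and 51 bases before it). IFIT5 had 3 matches, which begin 45, 19 and 4 bases before its start, and the last of them runs past the start. HERC5 had 3, of which those 125 and 119 bases before the start overlap and the last lies 74 bases before it. Among all 35116 RefSeq promoter windows of this length, 3.57% held at least 1 match, 0.259% at least 2 and 0.037% at least 3. The matches are letters in a window and were not measured for binding.

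Per kilobase of exon the order of levels in Control was IFIT1 (28.5 ± 1.89 CPM per kb, mean ± SD, n = 3), IFIT3 (24.7 ± 1.42), IFIT2 (17.0 ± 0.82), IFIT5 (10.7 ± 0.30), HERC5 (4.27 ± 0.40) and OASL (3.94 ± 0.48). The order HERC5 and OASL took was within their SDs, and in Insulin OASL stood above HERC5, at 4.63 ± 0.37 against 4.15 ± 0.34 CPM per kb. In raw counts every library was well covered, with 3214 to 6176 counts for IFIT1, 1165 to 2226 for IFIT5 and 454 to 756 for HERC5, the least covered. From the lowest to the highest of all 12 libraries the level spanned 1.21-fold for IFIT5, 1.43-fold for IFIT1 and IFIT3, 1.46-fold for IFIT2, 1.69-fold for HERC5 and 2.22-fold for OASL. The plot of CPM by library shows these values.

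**Figure D1:**
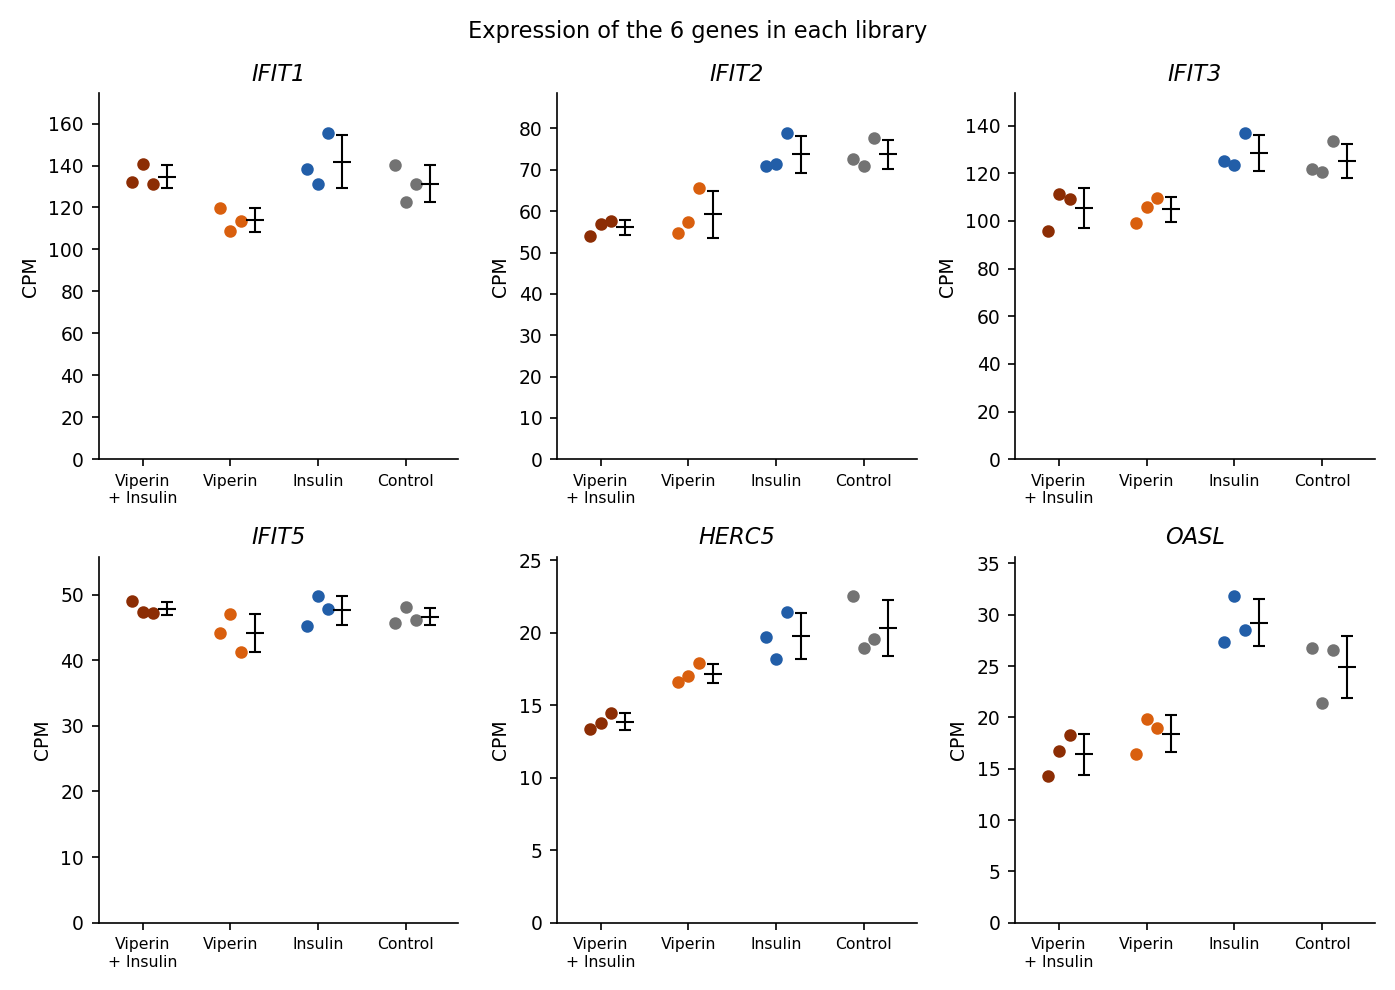
CPM (y axis, from 0) of each gene in each library, by group; points are libraries 1 to 3 of a group and bars the mean ± SD (n = 3). For IFIT2, IFIT3, HERC5 and OASL all 6 Viperin-plasmid libraries sit below all 6 empty-vector libraries, while the IFIT5 libraries overlap between 41.2 and 49.8 CPM.

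The plasmid was compared over both insulin states first, 6 libraries against 6. IFIT2, whose product can bind RNA on its own or paired with IFIT1 and IFIT3, had 54.0, 56.8 and 57.5 CPM in Viperin + Insulin and 54.7, 57.4 and 65.5 CPM in Viperin, against 71.0, 71.3 and 79.0 CPM in Insulin and 72.6, 70.9 and 77.7 CPM in Control. The highest Viperin-plasmid library was Viperin library 3, and it still lay below the lowest empty-vector library, Control library 2. IFIT2 fell by 21.9% (log2 fold change -0.36, SE 0.04, adjusted p = 7.2e-09, edgeR's quasi-likelihood test with Benjamini-Hochberg adjustment over 23041 genes), and only 20 genes had a smaller p. IFIT3, the partner that stabilizes IFIT1 on capped RNA, had 95.9, 111 and 109 CPM in Viperin + Insulin and 99.0, 106 and 110 CPM in Viperin, against 125, 123 and 137 CPM in Insulin and 122, 120 and 134 CPM in Control. Its plasmid groups did not overlap either, the closest libraries being Viperin + Insulin library 2 and Control library 2. IFIT3 fell by 17.2% (log2 fold change -0.27, SE 0.04, adjusted p = 7.9e-05).

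HERC5, the ISG15 ligase, had 13.3, 13.8 and 14.5 CPM in Viperin + Insulin and 16.6, 17.0 and 17.9 CPM in Viperin, against 19.7, 18.2 and 21.4 CPM in Insulin and 22.5, 18.9 and 19.6 CPM in Control. The Viperin + Insulin libraries were the lowest 3 of the 12, the Viperin libraries the next 3, and no Viperin-plasmid library reached an empty-vector one. HERC5 fell by 22.9% over both insulin states (log2 fold change -0.37, SE 0.05, adjusted p = 1.6e-07). OASL had 14.3, 16.7 and 18.3 CPM in Viperin + Insulin and 16.4, 19.9 and 18.9 CPM in Viperin, against 27.3, 31.8 and 28.5 CPM in Insulin and 26.7, 21.4 and 26.6 CPM in Control. The plasmid groups were again apart, with Control library 2 the lowest of the empty-vector libraries. OASL fell by 35.5% (log2 fold change -0.63, SE 0.07, adjusted p = 2.9e-05).

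IFIT1, which binds RNA caps that lack ribose methylation, had 132, 141 and 131 CPM in Viperin + Insulin and 120, 109 and 114 CPM in Viperin, against 138, 131 and 156 CPM in Insulin and 140, 123 and 131 CPM in Control. Its Viperin libraries were below every Control library, whereas the Viperin + Insulin libraries overlapped with both empty-vector groups. IFIT1 did not pass the test over both insulin states (log2 fold change -0.14, SE 0.04, adjusted p = 0.0512), a value next to the threshold that fell under it in 13 of 22 alternative settings. IFIT5, which binds RNA with a 5′ phosphate end, had 49.0, 47.3 and 47.3 CPM in Viperin + Insulin and 44.2, 47.1 and 41.2 CPM in Viperin, against 45.3, 49.8 and 47.7 CPM in Insulin and 45.6, 48.1 and 46.1 CPM in Control. The Viperin-plasmid and empty-vector ranges overlapped both with insulin and with vehicle. The IFIT5 log2 fold change was -0.03 with a 95% interval from -0.10 to 0.04 (adjusted p = 0.689), so a decrease as large as that of IFIT2 lay outside its interval.

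Over both insulin states 4 of the 6 genes were called lower and none higher, where 3.49% of all genes tested were called lower. All 4 also had 6 libraries lying below the other 6 without overlap, which 0.655% of all genes did. The 6 genes had a median log2 fold change of -0.31, beside 0.0012 over all genes. Because they were chosen with results of these libraries known, these counts and p-values describe the 6 genes and are not independent evidence. In bulk RNA, fewer cells that express a gene and less RNA per cell cannot be told apart. The 4 calls held in each of the 22 alternative settings, among them each library left out in turn. At the stricter threshold of adjusted p under 0.001 all 4 were still called, against 0.716% of all genes called lower.

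With vehicle, Viperin against Control, IFIT2 fell by 20.0% (log2 fold change -0.32, SE 0.05, adjusted p = 2.5e-04), IFIT3 fell by 16.4% (-0.26, SE 0.06, adjusted p = 0.0136) and OASL fell by 26.2% (-0.44, SE 0.10, adjusted p = 0.0361) in edgeR's test. IFIT1 (log2 fold change -0.20, SE 0.06, adjusted p = 0.0946) and HERC5 (-0.24, SE 0.07, adjusted p = 0.0565) did not pass, although both had all 3 Viperin libraries below all 3 Control libraries. IFIT5 gave -0.08 with a 95% interval from -0.18 to 0.03. So 3 of 6 genes were called lower, against 1.04% of all genes (IFIT2 alone at adjusted p under 0.001, against 0.117%), and 5 of 6 had groups lying apart, against 7.63% of all genes. Leaving out single libraries changed these calls. IFIT3 lost its call without Control library 3 (adjusted p = 0.0789), Viperin library 1 (0.0539) or Viperin library 2 (0.0664). OASL lost its call without Control library 1 (adjusted p = 0.0594), Control library 3 (0.181), Insulin library 3 (0.0554), Viperin library 1 (0.0597), Viperin library 3 (0.127) or Viperin + Insulin library 2 (0.0752), and with Control library 1 and Viperin library 3 both out (0.169). IFIT1 passed in 9 of 23 alternative settings, among them DESeq2 (adjusted p = 0.0305), limma-voom (0.0391), edgeR without the robust option (0.0191) and the fit of only the groups compared (0.0154). It also gained a call without Control library 2 (adjusted p = 0.0239), Insulin library 2 (0.0102) or Insulin library 3 (0.00476), and HERC5 without Control library 2 (0.0429).

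Under insulin, Viperin + Insulin against Insulin, the same comparison of plasmids gave 4 genes lower of 6, where 0.99% of all genes were called lower. OASL fell by 43.6% (log2 fold change -0.83, SE 0.10, adjusted p = 1.6e-04), the largest difference of any of the 6 genes in any comparison. HERC5 fell by 29.6% (-0.51, SE 0.07, adjusted p = 1.5e-06), IFIT2 fell by 23.9% (-0.39, SE 0.05, adjusted p = 4.2e-06) and IFIT3 fell by 17.9% (-0.28, SE 0.05, adjusted p = 0.00385). For these 4 genes every Viperin + Insulin library lay below every Insulin library, a separation in that direction that 9.88% of all genes showed. IFIT1 (log2 fold change -0.07, 95% interval -0.20 to 0.05) and IFIT5 (0.01, 95% interval -0.09 to 0.11) were not called. The 4 calls held with each library left out, and 3 of them (OASL, HERC5, IFIT2) passed at adjusted p under 0.001, as did 0.0998% of all genes in this direction. This comparison and that of Viperin against Control use different libraries, and the plot of log2 fold changes sets them side by side.

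**Figure D2:**
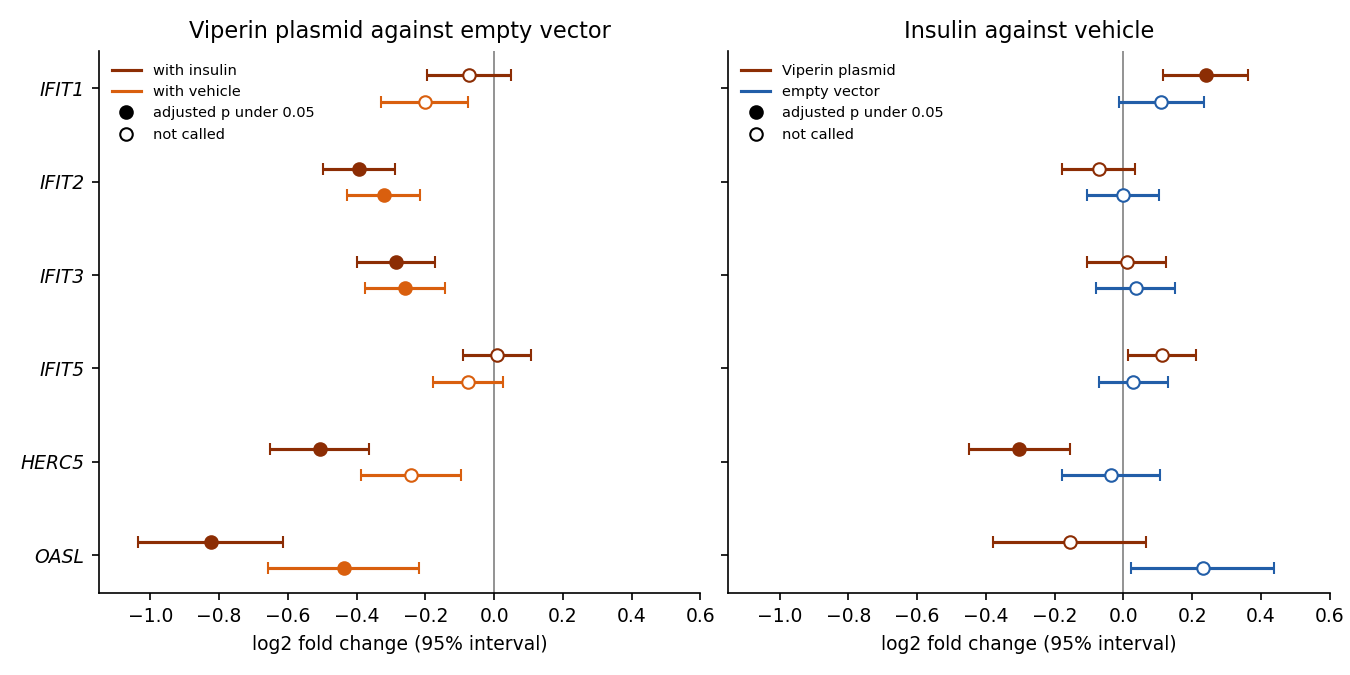
Log2 fold change (x axis) with its 95% interval for each gene; left, Viperin plasmid against empty vector with insulin and with vehicle; right, insulin against vehicle in Viperin-plasmid and in empty-vector cells. Filled points passed adjusted p under 0.05; OASL at -0.83 and HERC5 at -0.51 lie farthest to the left under insulin, and IFIT5 stays at 0.01.

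The response to insulin was small. Insulin against Control called 0 of the 6 genes (edgeR's quasi-likelihood test), where 5.49% of all genes were called in either direction. OASL alone had an unadjusted p under 0.05, as did 3991 of all genes, with a log2 fold change of 0.23 (SE 0.10, adjusted p = 0.22). Its 3 Insulin libraries lay above its 3 Control libraries, which 9.69% of all genes did. DESeq2 and limma-voom also called none of the 6 genes, while the fit with no filter on low counts called OASL (adjusted p = 0.00756). The intervals of IFIT2 (95% interval -0.11 to 0.10), IFIT3 (-0.08 to 0.15), IFIT5 (-0.07 to 0.13) and HERC5 (-0.18 to 0.11) included 0.

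In Viperin cells insulin changed 2 of the 6 genes, and in opposite directions. Viperin + Insulin against Viperin raised IFIT1 by 18.0% (log2 fold change 0.24, SE 0.06, adjusted p = 0.0234), where 2.17% of all genes were called higher. HERC5 fell by 18.9% (-0.30, SE 0.07, adjusted p = 0.00524), where 2.39% were called lower. The libraries of both genes did not overlap between these groups, and neither did those of IFIT5, at 47.3 to 49.0 CPM in Viperin + Insulin against 41.2 to 47.1 CPM in Viperin. Such a separation was found in 11% of all genes upward and 10.1% downward, and IFIT5 was not called (log2 fold change 0.11, SE 0.05, adjusted p = 0.225). The HERC5 call held in each of 23 alternative settings at adjusted p under 0.05. The IFIT1 call was lost without Control library 3 (adjusted p = 0.121), Viperin library 2 (0.0996), Viperin library 3 (0.134), Viperin + Insulin library 1 (0.0608) or Viperin + Insulin library 2 (0.0776), and with Control library 1 and Viperin library 3 both out (0.0905).

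Over both plasmids, insulin against vehicle again called IFIT1 higher (log2 fold change 0.17, SE 0.04, adjusted p = 0.00893) and HERC5 lower (-0.17, SE 0.05, adjusted p = 0.0171), where 5.76% and 5.97% of all genes were called in these directions. The IFIT1 call was lost without Control library 3 (adjusted p = 0.0905). The HERC5 call was lost without Control library 1 (adjusted p = 0.0838), Insulin library 2 (0.0869) or Viperin + Insulin library 1 (0.0567), and with Control library 1 and Viperin library 3 both out (0.17). IFIT2, IFIT3, IFIT5 and OASL were not called. At adjusted p under 0.001 none of the 6 genes passed in this comparison or in Viperin + Insulin against Viperin, where 3.92% and 1.11% of all genes did in either direction.

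Whether the Viperin plasmid changed the response to insulin was tested as the difference of both responses. None of the 6 genes passed, nor did any of all genes (0% called by edgeR). OASL had the largest estimate, -0.39 (SE 0.14, adjusted p = 0.731), followed by HERC5 at -0.27 (SE 0.10, adjusted p = 0.69). These 2 genes had an unadjusted p under 0.05, as did 1297 of all genes. DESeq2 and limma-voom called none of the 6, and the fit with no filter on low counts called OASL (adjusted p = 0.02). For IFIT1 the difference was 0.13 (SE 0.08, adjusted p = 0.937 in edgeR's test). The insulin responses of IFIT1 and HERC5 in Viperin cells are thus not shown to differ from those in empty-vector cells.

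Since IFIT5 shares the chromosomal cluster and varied least, the other genes were also expressed as counts per 100 IFIT5 counts of the same library, a choice made after its values were seen. OASL stood at 34.4 ± 4.76 in Viperin + Insulin and 41.8 ± 4.40 in Viperin, against 61.4 ± 2.25 in Insulin and 53.6 ± 7.83 in Control (mean ± SD, n = 3). HERC5 stood at 29.0 ± 1.72 in Viperin + Insulin and 39.1 ± 3.92 in Viperin, against 41.7 ± 4.46 in Insulin and 43.7 ± 5.13 in Control. IFIT2 stood at 117 ± 6.20 in Viperin + Insulin and 135 ± 20.8 in Viperin, against 155 ± 11.2 in Insulin and 158 ± 10.7 in Control. On this scale the Viperin + Insulin libraries kept below the Insulin libraries for all 3 genes, but the 6 Viperin-plasmid and 6 empty-vector libraries overlapped. For OASL the overlap was between 45.9 at the top of Viperin and 44.6 at the bottom of Control. IFIT1 differed little, at 282 ± 14.5 in Viperin + Insulin and 259 ± 24.8 in Viperin, against 298 ± 31.9 in Insulin and 282 ± 26.1 in Control.

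**Figure D3:**
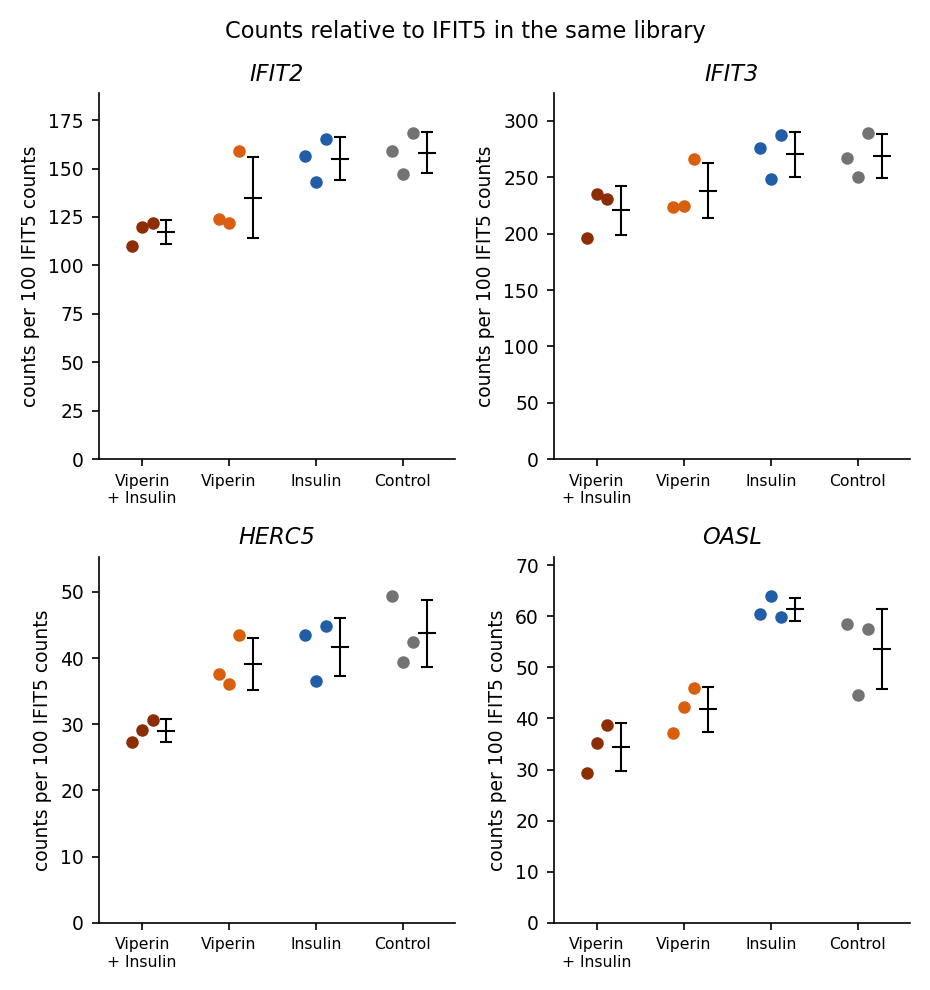
Counts per 100 IFIT5 counts of the same library (y axis, from 0) for IFIT2, IFIT3, HERC5 and OASL by group; points are libraries and bars the mean ± SD (n = 3). OASL is at 34.4 in Viperin + Insulin against 61.4 in Insulin, and the Viperin libraries reach into the Control range.

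The wider interferon pathway was read from lists of genes, chosen like the 6 genes with earlier results known. Of 32 other interferon-stimulated genes, all tested, 0 were called higher and 2 lower over both insulin states, where 3.49% of all genes were called lower. The median log2 fold change of the list was -0.04. The 2 were SAMD9, a restriction factor (log2 fold change -0.12, adjusted p = 0.00606), and IFI44 (-0.31, adjusted p = 0.0147). SAMD9 was lost without Insulin library 3 (adjusted p = 0.0758). IFI44 was lost without Control library 1 (adjusted p = 0.0502), Insulin library 3 (0.0537) or Viperin + Insulin library 1 (0.0593), and with Control library 1 and Viperin library 3 both out (0.0549). Among the remaining genes of the list were MX1 and MX2, GTPases that block viral replication, at log2 fold changes of -0.03 and -0.20. The 3 expressed oligoadenylate synthetases OAS1, OAS2 and OAS3, the active relatives of OASL, gave 0.07, -0.23 and -0.05, and the RNase L they activate gave -0.01, none of them called.

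**Figure D4:**
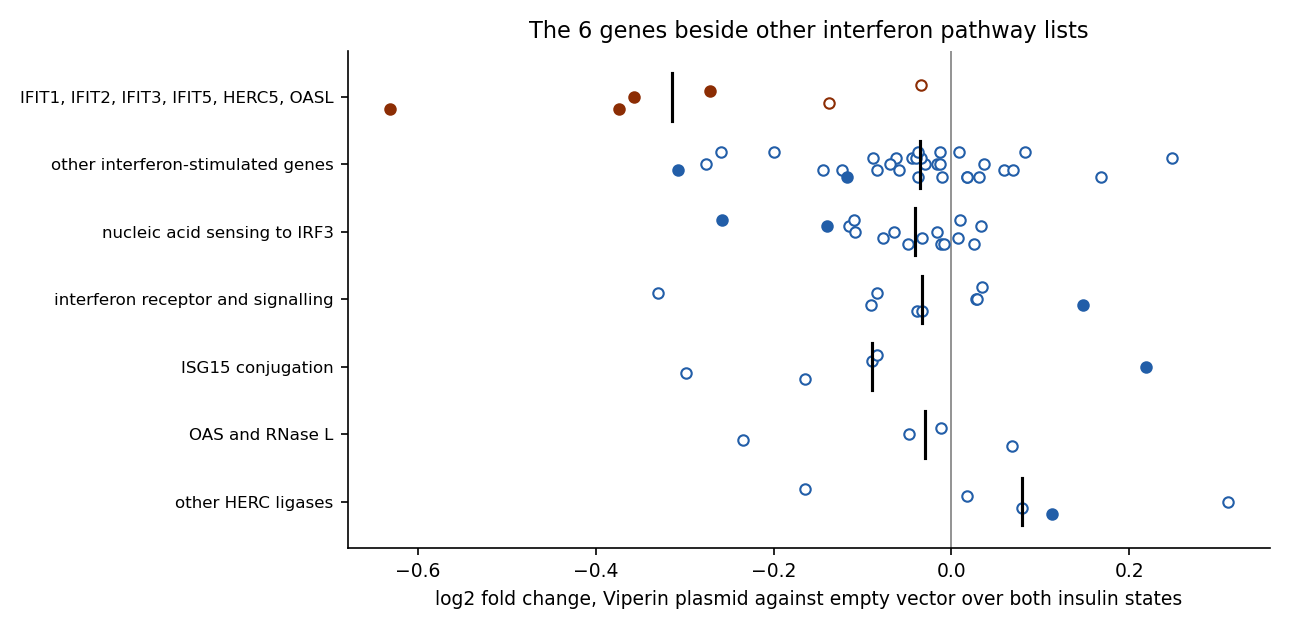
Log2 fold change of the Viperin plasmid against the empty vector over both insulin states (x axis) for the 6 genes and for the genes of 6 lists; points are genes, filled where adjusted p was under 0.05, spread vertically only to be visible, and black bars are medians. The 6 genes have a median of -0.31, the 32 other interferon-stimulated genes one of -0.04.

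Upstream of the 6 genes, RNA sensing leads from RIG-I through the adaptor MAVS to IRF3. Of 16 genes tested in this list, 0 were called higher and 2 lower over both insulin states, where 3.49% of all genes were called lower. The median log2 fold change of the list was -0.04. RIGI, which encodes RIG-I and is itself interferon-inducible, fell by 0.26 on the log2 scale (SE 0.05, adjusted p = 0.00188), and MAVS fell by 0.14 (SE 0.03, adjusted p = 4.2e-04). Both calls held in each of the 22 alternative settings. IRF3 itself was not called, at -0.08 on the log2 scale (adjusted p = 0.166). Of 9 tested genes for the interferon receptor and its signalling no gene was lower and 1 was higher, for which the share of all genes is not given here. It was STAT2, a subunit of the factor that binds the ISRE, at 0.15 (SE 0.03, adjusted p = 6.2e-04). IRF9, the DNA-binding subunit of that factor, was listed at 0 counts in all 12 libraries. Pairs that overlap more than 1 gene are not counted by this method, and whether that sets the 0 was not tested, so the value does not show that IRF9 was unexpressed.

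Transcripts of the listed interferon genes were next to undetected at 24 h, and interferon protein and earlier times were not measured. Of 12 interferon genes 7 were at 0 in every library, IFNB1 held 0 to 3 counts, and only IFNE, at 14 to 28 counts, entered the test (log2 fold change -0.33 over both insulin states, not called). Of the 7 other genes that IRF3 induces early, RSAD2 was called, which the plasmid itself carries, and the remaining 6 were not. Among these ISG15, the modifier that HERC5 attaches, stood at -0.30 on the log2 scale (SE 0.10, adjusted p = 0.137), and CXCL10 and CXCL11 held at most 4 counts in any library. ISG15 passed under limma-voom, under edgeR without the robust option, with no filter on low counts, without Control library 1, and with Control library 1 and Viperin library 3 both out. In the ISG15 conjugation list of 5 genes, UBA7, which activates ISG15, was higher by 0.22 (SE 0.07, adjusted p = 0.0368). That call was lost without Control library 2 (adjusted p = 0.166), Control library 3 (0.0848), Insulin library 2 (0.0634), Insulin library 3 (0.0948), Viperin library 1 (0.0673), Viperin library 2 (0.0913), Viperin + Insulin library 2 (0.0612) or Viperin + Insulin library 3 (0.138), and under DESeq2 (0.0893). Of 5 other HERC ligases tested, HERC1 was higher by 0.11 (SE 0.03, adjusted p = 0.00522) and none was called lower. For the calls of UBA7 and HERC1 the share of all genes called higher is not given here. HERC6, the closest relative of HERC5, stood at -0.16 (SE 0.06, adjusted p = 0.114) over both insulin states and at -0.24 (SE 0.09, adjusted p = 0.132) under insulin. It was called over both insulin states without Viperin library 1 or Viperin + Insulin library 3. The 4 genes for cap methylation, which hides RNA from IFIT1, were not called.

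Insulin also changed genes of this pathway outside the 6. Over both plasmids GBP2, an interferon-inducible GTPase, fell by 0.57 on the log2 scale (SE 0.05, adjusted p = 5.2e-16), MAVS fell by 0.13 (SE 0.03, adjusted p = 8.0e-04) and the receptor kinase JAK1 fell by 0.12 (SE 0.03, adjusted p = 3.0e-04). These 3 calls held in each of the 22 alternative settings. Of the 32 other interferon-stimulated genes 2 were called higher and 4 lower, with a median of -0.01. Of all genes, 5.76% were called higher and 5.97% lower in this comparison.

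Other measures moved with the groups as well, and their part in the results was not tested. The summed level of the 8 stromal markers, in CPM of plain library totals, was 5384 to 5700 CPM in Viperin + Insulin and 5478 to 5614 CPM in Viperin, against 4908 to 5008 CPM in Insulin and 4710 to 5138 CPM in Control. Over both insulin states 1 of the 8 was called lower, as were 3.49% of all genes. Another 5 were called higher, and the share of all genes called higher is not given here, so that count only describes these markers. Their median log2 fold change was 0.22, beside 0.0012 over all genes, and none of the 8 was at 0 in any library. The 6 epithelial markers summed to 2574 to 2707 CPM in Viperin + Insulin and 2453 to 2548 CPM in Viperin, against 2674 to 2807 CPM in Insulin and 2544 to 2621 CPM in Control. Of these 6, 1 was called lower over both insulin states, where 3.49% of all genes were. The mitochondrial share of counts was 4.28% to 4.52% in Viperin + Insulin and 4.81% to 5.34% in Viperin, against 5.14% to 5.18% in Insulin and 5.59% to 6.64% in Control. The 9 leukocyte markers summed to 6.76 to 7.16 CPM in Viperin + Insulin and 6.11 to 7.61 CPM in Viperin, against 5.85 to 6.92 CPM in Insulin and 5.29 to 5.98 CPM in Control. The monocyte gene CD14 led them with 127 to 258 counts per library. The dendritic cell markers LILRA4 and CLEC4C were at 0 throughout, the T cell gene CD3E at 0 to 1 count, and 0 of 5 tested leukocyte markers were called.

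The genes whose pattern was most like the mean standardized profile of the 6 genes were, over 12 libraries and among 14660 candidates, BUD31 (Pearson's r = 0.97), KCTD17 (0.94), HBB (0.92), MRPS2 (0.91) and MRPL28 (0.91). BUD31 is a splicing factor, HBB encodes a globin chain, and MRPS2 and MRPL28 are proteins of the mitochondrial ribosome. The 12 libraries share the 4 groups, so these values describe likeness over groups as much as over libraries. HBB had a mean of 35.7 counts per library and a far larger difference than the 6 genes, with a log2 fold change of -3.80 for the plasmid over both insulin states (SE 0.34), beside -0.12 to -0.17 for the other 4 genes.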

How the data were processed

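The deposited files hold raw counts of read pairs per gene, which the authors made by trimming 50 bp paired reads (cutadapt, Trim Galore) and aligning them to hg38 with STAR, whose GeneCounts option gives unstranded and per-strand counts. The GENCODE release of the files is not given in the sources used here for human. Libraries were poly(A) selected and stranded, and 94.1% to 94.3% of stranded pairs fell on the reverse strand, whose counts were used. Pairs assigned to no gene (7.05% to 7.89%) and multimapped pairs were left out of library sizes.

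Counts were fitted in edgeR 4.0.16 (R 4.3.3) with TMM scaling, a low-count filter (mean under 1 count removed) and robust quasi-likelihood dispersions, as 1 model of 4 group means, and 7 comparisons were tested with Benjamini-Hochberg adjustment over 23041 genes, with calls at adjusted p under 0.05. Levels are CPM; log2 fold changes use a prior count of 2. Alternatives were DESeq2 1.42.0, limma-voom 3.58.1, other scalings and filters, unstranded counts, a replicate block, the stricter threshold of 0.001, only the groups compared, and each library left out in turn. Simulated counts with 200 changed genes were used to check the fit. No replicate pair of libraries had identical counts, and chi-square values per degree of freedom were 2.01 to 9.21. The spread between libraries may be partly technical.

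The members and gene lists were chosen with earlier results of these data known. Named were all 6 genes, RSAD2, the called genes of each list (up to the 4 with the smallest p, or examples where none passed), and the 5 genes with the most similar profile among those averaging 10 counts or more. Beyond this rule, genes named for their role (IRF3, IRF9, MX1, MX2 and the interferons) were chosen after their values were seen. Symbols and gene models came from GENCODE 44 and matched 60357 of 60617 rows, and promoters from RefSeq (GRCh38.p14).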

Additional observations from a re-analysis of the deposited data

How the results depend on the processing

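No direction among the 6 genes' called values reversed in any setting. Over all comparisons, 888 values of single genes kept their side of the threshold, and those uncalled moved by less than their standard error. Uncalled values near 0 could change sign, such as IFIT3 in Insulin against Control, at -0.01 to 0.09. A further 21 values lost a call, 26 gained a call and 13 uncalled values moved by more than their standard error. Counts of the 6 genes called changed as follows. Viperin against Control called 1 gene at adjusted p under 0.001 and 5 with no filter on low counts, beside 3, and 4 under DESeq2, limma-voom, edgeR without the robust option and the fit of only the groups compared, IFIT1 being the added gene. With no filter on low counts, Insulin against Control and the difference of the insulin responses each called 1 gene, OASL, beside 0 (adjusted p = 0.00756 and 0.02). Viperin + Insulin against Viperin and insulin over both plasmids each called 0 at adjusted p under 0.001 and 1 with Control library 1 and Viperin library 3 both left out, beside 2; leaving out both was chosen after seeing the data. With 1 library left out at a time the counts were 1 to 5 for Viperin against Control, 0 to 0 for Insulin against Control, 1 to 2 for Viperin + Insulin against Viperin, 4 to 4 for Viperin + Insulin against Insulin, 0 to 0 for the difference, 4 to 5 for the plasmid over both insulin states and 1 to 2 for insulin over both plasmids. IFIT1 accounted for the count of 5 for the plasmid over both insulin states. Counts of other interferon-stimulated genes called for the plasmid over both insulin states were 0 to 4 over 22 settings, those of ISG15 conjugation genes 0 to 3. Causes were not tested.

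The replicate numbers did not pair the libraries: deviations from group means of same-numbered libraries correlated at -0.021 to 0.024, 0 of 18 pairs were over 0.1, and 0 of 12 libraries correlated best with their own number. A fit with the replicate block called 4 genes for Viperin against Control (IFIT1 added) and 5 for the plasmid over both insulin states, 4 for Viperin + Insulin against Insulin, 2 for Viperin + Insulin against Viperin and 2 for insulin over both plasmids, and 0 for the other comparisons. Other scalings moved the median of all genes by less than 0.01 on the log2 scale. Each of the 6 genes had 454 or more counts per library. Interferon transcripts at 0 to 4 counts were too few to compare.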
